A study of Canis lupus familiaris with 51 samples.

Results

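The calgranulins S100A8, S100A9 and S100A12 and the neutrophil genes MPO, LTF, CAMP and CSF3R were examined in 51 canine cutaneous mast cell tumors (MCTs), 1 tumor of 1 dog per array. The members were chosen by name: every probe whose gene name or description equals 1 of 8 names was taken, and 6 of the 8 names had a probe, which gave 6 of 10904 named genes and 10 of the 43603 probes measured. MPO was not analysed here because no probe carried its name, and S100A12 was measured only through the transcript DR104796, which the scanner files describe as similar to human S100A12 (calgranulin C). The list was drawn up with the contrast of the reference samples of this study in view, so the values of that contrast are given as a description only.

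RNA from the central part of each tumor was labeled with 1 dye and hybridized to Agilent canine arrays. Among the tumors were 18 reference samples, 13 of them differentiated and 5 undifferentiated, on which all pathologists of the study had concurred. The other 33 samples, called unknown, were assigned to a class by the study from 13 other genes of the same arrays, 7 as undifferentiated and 26 as differentiated. None of those 13 genes is a member here. GEO's labels give the case number of each tumor but not its class. The class was therefore taken from the study by case number, for the reference samples from its list of them and for the unknown samples from its plot of class prediction. LM0 matches no name in the study, and was put with the undifferentiated reference samples by elimination, as the last case and the last name left over. All tumors were spontaneous tumors of client-owned dogs of many breeds. The reference dogs were 5 to 13 years old (2 female, 3 male) in the undifferentiated and 3 to 13 years old (8 female, 5 male) in the differentiated class. The dogs of the unknown samples were 6 to 14 years old (2 female, 4 male) where the tumor was assigned as undifferentiated and 4 to 13 years old (18 female, 7 male) where it was assigned as differentiated. The arrays came from 15 slides scanned on 9 days, and between 59.4% and 74.8% of the non-control spots of an array were well above background. No spot of a member was saturated or flagged as an outlier. Levels are log2 signals after quantile normalization over the 51 arrays, so that a step of 1 is a 2-fold change. The signal of one probe cannot be set against that of another as an amount of RNA.

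S100A8 and S100A9 are small calcium-binding proteins that pair to form calprotectin, and S100A12 is their close relative. Neutrophils and monocytes store large amounts of all of them, and epidermal keratinocytes make S100A8 and S100A9 when the skin is injured or inflamed. Once released they act on neighboring cells through receptors such as TLR4 and RAGE (AGER). MPO, lactoferrin (LTF) and the cathelicidin CAMP are proteins of neutrophil granules, and CSF3R is the receptor for G-CSF, the growth factor of neutrophils. Lactoferrin is also secreted by glandular epithelium. In a bulk tumor sample, fewer cells of a type and less RNA per cell cannot be told apart.

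The probes on which the results turn are shown because they define what was measured as S100A8, S100A9 and the S100A12-like transcript. Each is 60 bases long and is written 5′ to 3′ as in the scanner files, with its position there, in a genome build that those files do not name. Capitals mark the 30 bases that both S100A9 probes share.
S100A8 (chr7:46518533-46518592, plus strand): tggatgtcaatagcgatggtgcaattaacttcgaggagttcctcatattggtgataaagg
S100A9, brighter probe (chr7:46544312-46544371, minus strand): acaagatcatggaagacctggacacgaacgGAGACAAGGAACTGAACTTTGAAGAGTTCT
S100A9, dimmer probe (chr7:46544282-46544341, minus strand): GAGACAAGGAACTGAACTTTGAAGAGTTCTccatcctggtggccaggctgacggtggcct
DR104796 (chr7:46532382-46532441, plus strand): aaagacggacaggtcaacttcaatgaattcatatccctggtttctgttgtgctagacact

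The 3 genes lie next to each other on chromosome 7, with DR104796 between S100A8 and S100A9 in these coordinates. Their probes are different sequences. The longest run of identical bases was 6 between the S100A8 probe and either S100A9 probe, 6 between the S100A8 and DR104796 probes, and 5 or 6 between the DR104796 probe and the S100A9 probes. In the best ungapped alignment the S100A8 probe matched the dimmer S100A9 probe at 29 of 48 overlapping bases. The LTF and CSF3R probes that were brightest are given for the same reason.
LTF (chr20:45260427-45260486, plus strand): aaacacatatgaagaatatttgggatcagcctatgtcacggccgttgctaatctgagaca
CSF3R (chr15:8840248-8840307, plus strand): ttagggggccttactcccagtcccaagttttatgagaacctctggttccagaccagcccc

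The calgranulins were among the most variable transcripts of these tumors. S100A9, in its brighter probe, ran from 6.97 in tumor T113 to 17.57 in T114, a 1550–fold span. S100A8 ran from 7.34 in T130 to 17.64 in T104, a 1260–fold span, and DR104796 from 7.62 in T113 to 18.14 in T114, a 1480–fold span. A wider range than that of S100A9 was found in 198 of the 43603 probes (0.454%), than that of S100A8 in 249 (0.571%) and than that of DR104796 in 210 (0.482%). All 51 tumors were well above background for each of these probes. Both S100A9 probes, which share 30 of their 60 bases, differed by a median of 0.29 and at most 0.55 within a tumor.

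S100A9 levels were not evenly spread. The widest gap between neighboring tumors lay between T112 at 14.80 and T80 at 16.35, with 10 tumors above it. DR104796 had its widest gap between the same tumors, 15.31 in T112 and 16.78 in T80, while that of S100A8 lay between T58 at 14.46 and T112 at 15.70, with 11 tumors above it. Of the 10 tumors above the gap of S100A9, 8 belonged to the 12 undifferentiated MCTs (3 reference and 5 unknown samples) and 2, T53 and T87, to the 39 differentiated ones. The classes therefore overlapped in both directions.

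**Figure D1:**
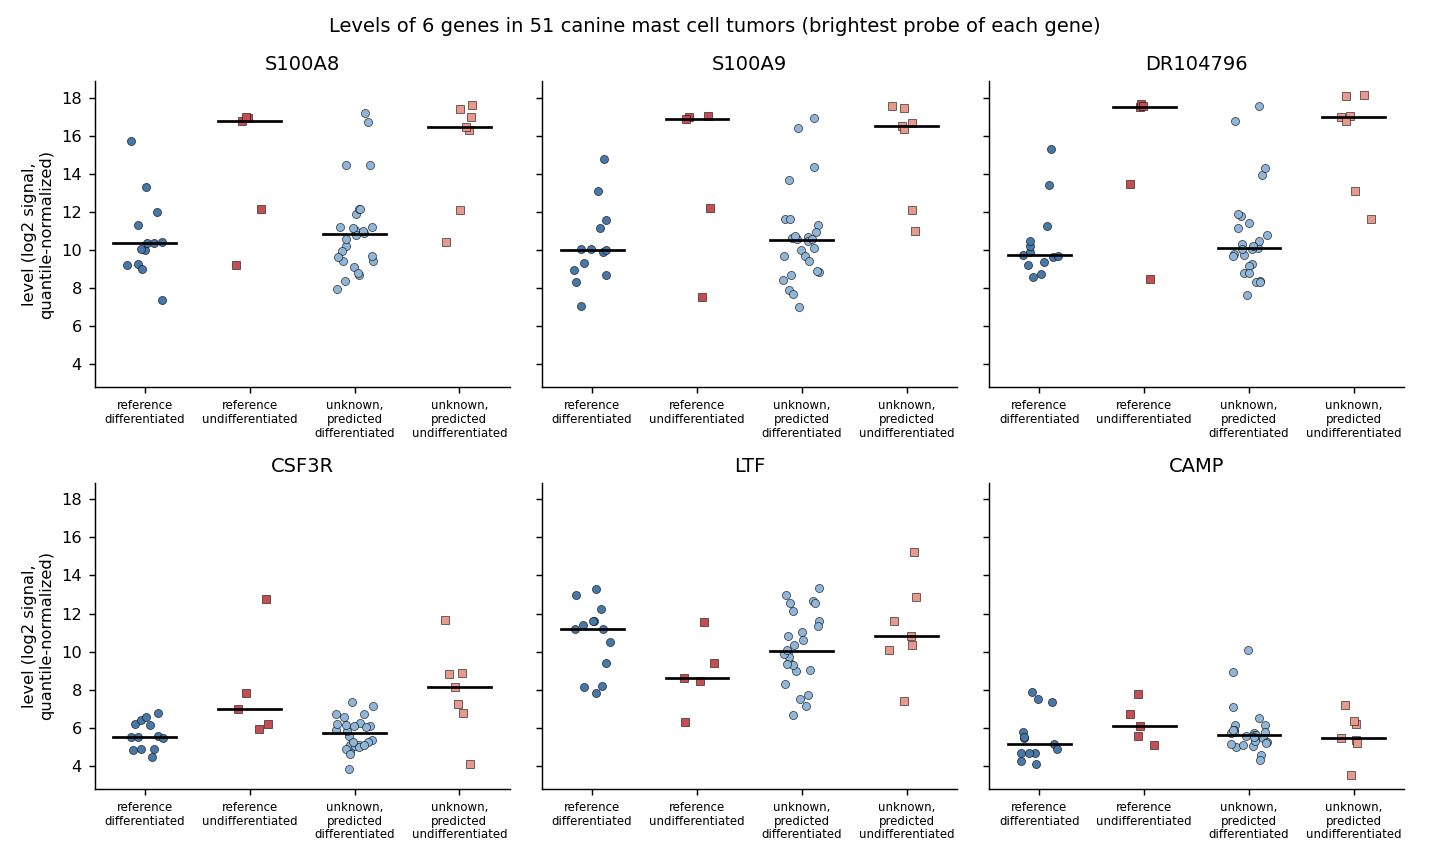
Level of each gene (y axis, log2 signal after quantile normalization, brightest probe) in 13 differentiated and 5 undifferentiated reference samples and in 26 and 7 unknown samples assigned to these classes (x axis). Each point is 1 tumor and the line is the median of the class. For the 3 calgranulin transcripts most undifferentiated tumors lie above 16, with T9, LM0, T115 and T49 below 14, while CAMP shows no such shift.

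In the reference samples, whose contrast guided the choice of genes, S100A9 was 17.02 in T90, 16.97 in T57, 16.91 in T73, 12.22 in LM0 and 7.54 in T9. In the 13 differentiated samples it had its lowest value at 7.05, its median at 10.01 and its highest value at 14.80 (T112). Thus 3 of 5 undifferentiated samples lay above every differentiated one, LM0 lay within their range, and T9 was lower than 12 of the 13 differentiated samples. The mean was 14.13 ± 4.22 (SD, n = 5) against 10.22 ± 2.06 (SD, n = 13), a difference of 3.92. The same 3 tumors were highest for the other calgranulins, with T57, T73 and T90 at 16.78 to 17.002 for S100A8 and at 17.53 to 17.70 for DR104796. LM0 and T9 stood at 12.17 and 9.22 for S100A8 and at 13.44 and 8.47 for DR104796. The differences of the means were 3.78 for S100A8 and 4.52 for DR104796. No member probe was called in limma's fit of these 18 arrays, in which 1.85% of all probes were called, and nothing is read from that share because the contrast chose the genes. Leaving out 1 undifferentiated reference sample at a time moved the S100A9 difference from 3.19 (without T90) to 5.56 (without T9). Without LM0, whose class rests on elimination, it was 4.39.

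CSF3R, the receptor for G-CSF, was 12.76 in T57, 7.83 in LM0, 6.99 in T73, 6.18 in T9 and 5.93 in T90. The differentiated reference samples had a lowest level of 4.43, a median of 5.53 and a highest level of 6.77. T57, LM0 and T73 thus lay above all 13 of them, and the mean difference was 2.32 in this brighter probe of CSF3R. In its dimmer probe both classes had a median of 1.73, and 1 of 5 undifferentiated samples, T57, lay above every differentiated one. LTF went the other way in its brightest probe, with 11.57 in T57, 9.38 in T90, 8.60 in T9, 8.43 in T73 and 6.29 in LM0 against a median of 11.20 (range 7.82 to 13.27) in the differentiated samples. No undifferentiated reference sample lay above the highest differentiated one for LTF. The mean difference of the 3 LTF probes was -1.88, -1.10 and -1.69. CAMP differed by 0.71, with 6.24 ± 1.05 (SD, n = 5) and 5.53 ± 1.26 (SD, n = 13).

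Members were chosen with earlier results of these data known, but the unknown samples were not used in the contrast that chose the genes. The classes assigned to these samples were therefore compared by a test. It addresses whether the calgranulins also differ between the assigned classes in tumors outside the reference set. The calgranulins were higher in the 7 tumors assigned as undifferentiated than in the 26 assigned as differentiated, by 19.2 to 37.9–fold, and CSF3R by 4.77–fold in its brighter probe. LTF and CAMP did not pass the test. A probe was called at a limma adjusted p under 0.01 and a change of at least 2–fold; 437 of the 43603 probes were called, 323 of them higher in undifferentiated tumors (0.741% of all probes). Of the 10 member probes 5 were called, all of them higher. These 5 probes stand for 4 transcripts whose levels follow each other in part, and are not independent counts.

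S100A9 in its brighter probe was 17.57 in T114, 17.46 in T104, 16.69 in T77, 16.49 in T132, 16.35 in T80, 12.103 in T115 and 10.99 in T49. The 26 tumors assigned as differentiated had a lowest level of 6.97, a median of 10.52 and a highest level of 16.93. All 7 undifferentiated tumors lay above the differentiated median, 2 of them (T114 and T104) lay above every differentiated tumor, and 7 differentiated tumors lay above the lowest undifferentiated one. The mean was 15.38 ± 2.68 (SD, n = 7) against 10.64 ± 2.43 (SD, n = 26), and the difference of 4.74 (SE 1.03, 95% interval 2.65 to 6.82) had a limma adjusted p of 0.00441. The dimmer probe gave 4.88 (limma adjusted p = 0.00375).

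DR104796 was 18.14 in T114, 18.10 in T104, 17.03 in T77, 16.96 in T132, 16.78 in T80, 13.08 in T115 and 11.61 in T49. Its levels in the differentiated class ran from 7.62 over a median of 10.07 to 17.56 in T53. Again T114 and T104 exceeded all of them, and T115 and T49 lay within their range. The difference was 5.24 (SE 1.03, limma adjusted p = 0.00196), the largest of the 10 member probes.

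S100A8 was 17.64 in T104, 17.41 in T114, 17.002 in T77, 16.47 in T80, 16.32 in T132, 12.09 in T115 and 10.42 in T49. The differentiated class ran from 7.93 over a median of 10.82 to 17.17 in T53. T49 was below that median, so that 6 of 7 undifferentiated tumors were above it. The difference was 4.26 (SE 1.02), with a limma adjusted p of 0.00975 that lay just inside the threshold.

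**Figure D2:**
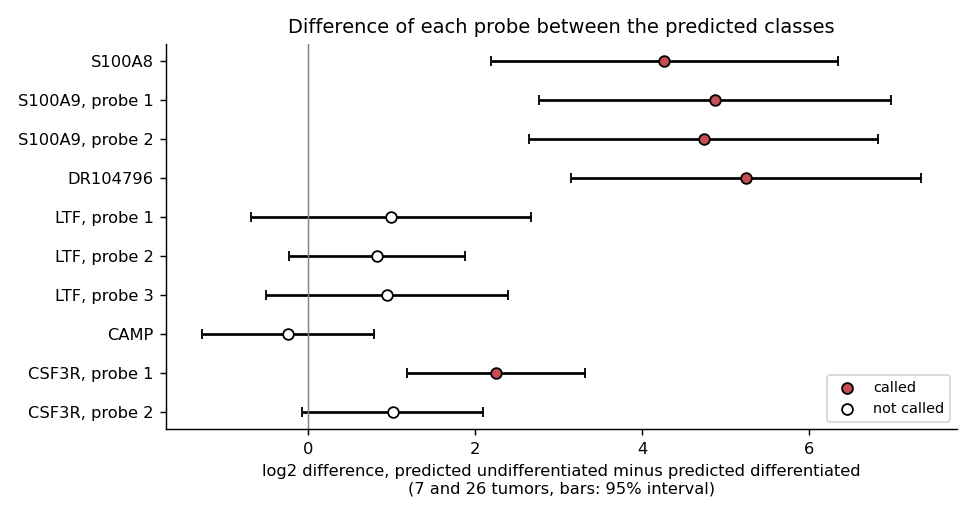
Difference of each of the 10 probes (x axis, log2, mean of 7 unknown samples assigned as undifferentiated minus mean of 26 assigned as differentiated) with its 95% interval as the bar. Filled points were called, from CSF3R probe 1 at 2.25 to DR104796 at 5.24, and open points (LTF, CAMP and CSF3R probe 2) were not; S100A9 probe 2 and CSF3R probe 1 are the brighter ones.

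These calls rested on few tumors. The S100A9 call was lost when any of T77, T80, T104, T114 or T132 was left out, with limma adjusted p values of 0.012 to 0.0248 and differences of 4.37 to 4.58. The DR104796 call was lost only without T114 (adjusted p = 0.012, difference 4.88), and the S100A8 call was kept in 6 of 33 such fits. With slide as a fixed block the differences were 4.34 for S100A9 (adjusted p = 0.13), 3.75 for S100A8 (adjusted p = 0.206) and 4.76 for DR104796 (adjusted p = 0.101), and none was called. Both classes of the unknown samples were present on 5 slides, each with only 1 or 2 undifferentiated and 1 to 3 differentiated tumors. Within each of these 5 slides S100A9 was higher in the undifferentiated tumors, by 0.40 to 6.21, and DR104796 by 1.01 to 6.55. S100A8 was higher within 4 of the 5 slides, with -0.70 to 5.70. With scan day as a fixed block, an alternative chosen after seeing the data, the 3 differences were 4.81, 4.20 and 5.30 (limma adjusted p = 0.0368, 0.0671 and 0.0227). Age as a covariate, in a fit that drops T132 and T14 because they have no age, gave 4.44, 4.02 and 4.97 (adjusted p = 0.0256, 0.0436 and 0.014).

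CSF3R had 2 probes that behaved differently. The brighter one was 11.64 in T114, 8.85 in T132, 8.81 in T115, 8.13 in T49, 7.23 in T104, 6.79 in T80 and 4.10 in T77, where it was not well above background. The differentiated class ran from 3.83 over a median of 5.70 to 7.35, so that 4 of 7 undifferentiated tumors exceeded all 26. The mean was 7.94 ± 2.31 (SD, n = 7) against 5.68 ± 0.84 (SD, n = 26). The difference was 2.25 (SE 0.52, limma adjusted p = 0.00796), in a fit that assumes the same spread in both classes. It was 1.64 (adjusted p = 0.0543) without T114, and was called in 16 of 33 fits that left out 1 tumor. With slide as a fixed block it was 2.73 and still called (adjusted p = 0.0082), the only member probe that was. The call was lost with sex as a covariate, in a fit that drops T53 and T132 because they have no sex (1.97, limma adjusted p = 0.0474), and with age as a covariate (2.11, 0.0363). It was also lost with scan day as a fixed block (2.37, 0.0106), in the authors' normalized table (2.10, 0.0258) and by the methods' t-test after adjustment. With normexp background correction the probe was called at a smaller difference, 1.41. The other CSF3R probe was well above background in 7 of the 51 tumors, among them T57 at 8.56 and T114 at 7.08, and its difference of 1.01 was not called (adjusted p = 0.301).

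LTF, which codes for the iron-binding granule protein lactoferrin, was highest in T77 at 15.24, then 12.87 in T104, 11.60 in T80, 10.82 in T115, 10.33 in T114, 10.09 in T132 and 7.38 in T49. The differentiated class ran from 6.68 over 10.02 to 13.34, so only T77 lay outside it. The difference of the brightest probe was 0.997 (95% interval -0.68 to 2.67, limma adjusted p = 0.583). The other LTF probes gave 0.83 and 0.95 (adjusted p = 0.419 and 0.533). With slide as a fixed block all 3 were below 0, between -0.39 and -0.15, also not called. CAMP was 5.61 ± 1.17 (SD, n = 7) and 5.85 ± 1.23 (SD, n = 26), a difference of -0.24 (95% interval -1.27 to 0.79, adjusted p = 0.846). Its highest levels, 10.08 in T121 and 8.94 in T61, were in tumors assigned as differentiated.

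The calgranulins varied together from tumor to tumor, while the other neutrophil genes followed them loosely or not at all. Over the 51 tumors the Spearman correlation was 0.97 between S100A8 and S100A9, 0.94 between S100A9 and DR104796, and 0.93 between S100A8 and DR104796. Within the 39 differentiated tumors alone it was 0.95, 0.89 and 0.88, and within the 12 undifferentiated ones 0.95, 0.98 and 0.95. With S100A9 it was 0.52 for CSF3R, 0.33 for LTF and -0.10 for CAMP over the 51 tumors. Within the 39 differentiated and the 12 undifferentiated tumors it was 0.43 and 0.14 for CSF3R, 0.42 and 0.41 for LTF, and -0.22 and 0.22 for CAMP. In the 33 unknown samples it was 0.54 for CSF3R, 0.53 for LTF and -0.29 for CAMP. Over the 51 tumors LTF and CAMP correlated at -0.30, and LTF and CSF3R at 0.10. The 3 LTF probes, in contrast, correlated with each other at 0.96 to 0.99. These values are descriptions across tumors that were normalized together.

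**Figure D3:**
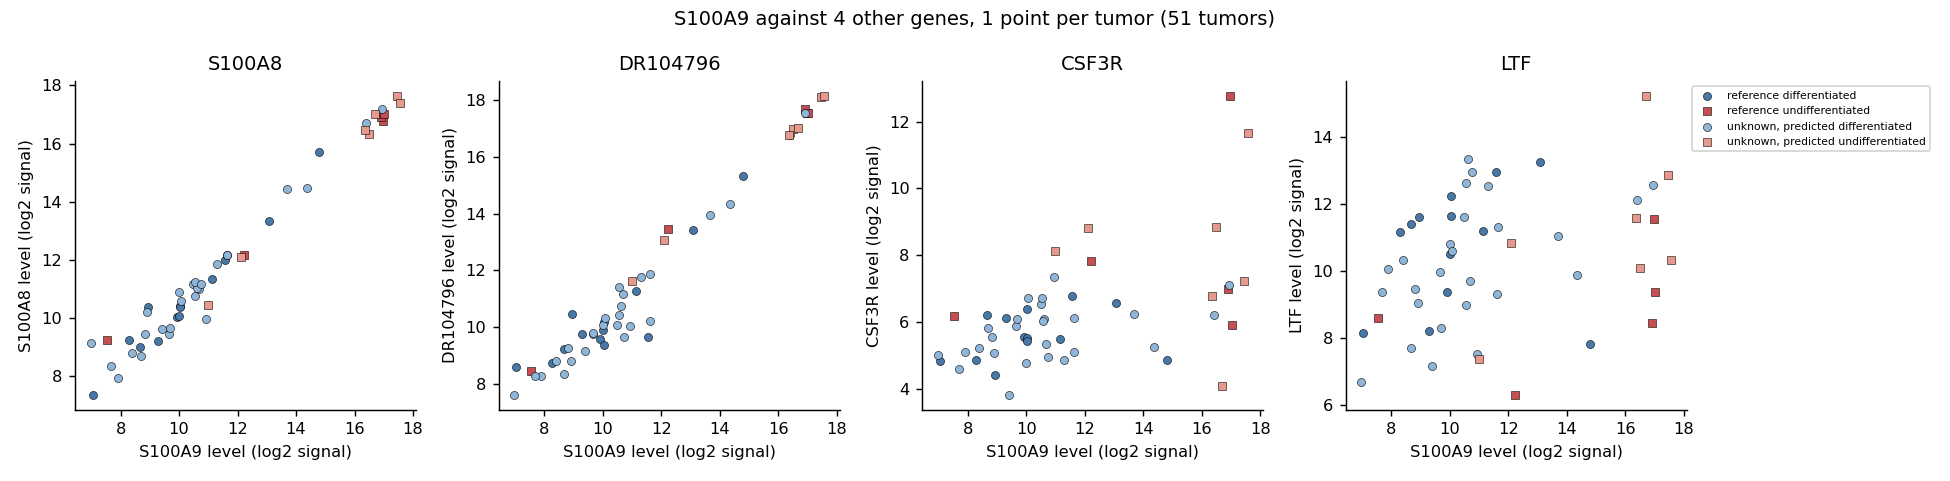
Level of S100A8, DR104796, CSF3R and LTF (y axes, log2 signal) against that of S100A9 (x axes, log2 signal) in the 51 tumors, with color and symbol showing the class. S100A8 and DR104796 form a narrow band along S100A9 (Spearman correlations 0.97 and 0.94), CSF3R is highest in T57 and T114 at 12.76 and 11.64, and LTF is scattered (0.33).

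For each gene the 5 genes with the most similar pattern were sought among 9727 genes that were well above background on at least 10 arrays. Those of S100A9 were RAB10 (Spearman correlation 0.79 over 51 tumors), C15H1orf109 (0.79), CYC1 (0.76), SLC2A1 (0.75) and NOP16 (0.74). Within the 39 differentiated tumors these 5 correlated with S100A9 at 0.59 to 0.74. Each was also higher in the tumors assigned as undifferentiated, by 0.58 to 2.61 (limma adjusted p = 0.0011 to 0.0128). How much of the similarity comes from the class difference was not tested. DR104796 shared 4 of them, RAB10, CYC1, NOP16 and C15H1orf109, with LOC608051 as the fifth. S100A8 was closest to NQO1, LOC608051, TUBA1C, CYC1 (each 0.77) and RAB10 (0.75). Those of LTF were ELAPOR1 (0.89), MGST1 (0.86), CCDC160 (0.86), ABCC11 (0.85) and SLC13A2 (0.84), which correlated with S100A9 at 0.15 to 0.27. CAMP was closest to FGR, EDEM2, GRAMD1B, NFE2 (each 0.66) and ADGRE1 (0.64), and CSF3R to TFRC (0.72), MTHFD2 (0.66), DNPH1, TM4SF20 and MIB1 (each 0.65). The 5 genes closest to CSF3R correlated with S100A9 at 0.22 to 0.64, and those closest to CAMP at -0.25 to 0.02. Within the 39 differentiated tumors the 5 genes of CSF3R correlated with CSF3R at 0.46 to 0.55. No gene was among the 5 closest of both a calgranulin and LTF, CAMP or CSF3R, which says little because each list holds only 5 of 9727 genes.

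Other genes of neutrophils were then examined in the unknown samples, in lists written from general knowledge and with earlier results of these data known. Of 24 measured genes of neutrophil granules and functions 2 were called higher and 0 lower in undifferentiated tumors, with a median difference of 0.03, beside 1.28% of all 10904 named genes called higher and a median of -0.0046. The 2 were CXCR2, a receptor for neutrophil-attracting chemokines, and MGAM, a glucosidase found on mature neutrophils. CXCR2 was 6.17 ± 1.39 (SD, n = 7) against 4.33 ± 0.56 (SD, n = 26), a difference of 1.84 (limma adjusted p = 0.000693). In the undifferentiated class it was highest in T114 at 9.03 and next in T132 at 6.35. T77, T80 and T115 lay within the differentiated range, which ended at 5.82. MGAM differed by 2.84 (limma adjusted p = 0.000147), and was well above background in 5 of 7 undifferentiated and 1 of 26 differentiated tumors. The granule protease ELANE was 3.90 and 3.68 and well above background in 3 of 7 and 7 of 26 tumors, with no call (adjusted p = 0.687). Only RNA was measured, and the RNA level of a granule protein does not show the protein that neutrophils store.

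Of 10 measured cytokines that attract neutrophils or drive their growth 2 were also called higher and 0 lower, with a median difference of 2.48, beside the same 1.28% and -0.0046 over all named genes. The 2 lists were not tested against each other. At an unadjusted p under 0.05 in limma's fit were 8 of these 10 cytokines and 4 of the 24 granule and function genes. The share of all 10904 named genes at that threshold was 24.1%. CSF2 and IL1A differed by 2.97 and 2.87 and were not called (limma adjusted p = 0.0165 and 0.0151). CXCL8, the main neutrophil-attracting chemokine, was 12.50 ± 3.24 (SD, n = 7) against 7.77 ± 1.94 (SD, n = 26), a difference of 4.73 (limma adjusted p = 0.00196). All 4 of its probes were called. T77 at 8.40, T80 at 9.34 and T115 at 10.24 lay within the differentiated range, which ended at 10.93. IL1B, the inflammatory cytokine interleukin 1 beta, differed by 4.24 (limma adjusted p = 0.00403) in its brightest probe. IL1B was well above background in 5 of 7 undifferentiated and 4 of 26 differentiated tumors, and 1 of its 3 probes was called. Across the 51 tumors CXCL8 correlated with S100A9 at 0.50 and IL1B at 0.31 (Spearman).

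Among 13 other S100 genes limma called 0, with 5 at an unadjusted p under 0.05, and the median difference was 0.30. The counts at an unadjusted p under 0.05, here and for the lists that follow, stand beside 24.1% of all 10904 named genes and 19.4% of all probes at that threshold in the same fit. Among 8 receptors and signaling partners of the calgranulins 1 was called, the lipopolysaccharide co-receptor CD14, which is also on the macrophage list. CD14 was 11.19 ± 1.21 (SD, n = 7) against 9.49 ± 0.48 (SD, n = 26), a difference of 1.70 (limma adjusted p = 0.000342). Over the 51 tumors the 8 genes correlated with S100A9 at -0.57 to 0.44 (Spearman), with a median of 0.10 and CD14 the highest. Whether the calls of CD14, CXCR2, MGAM, CXCL8 and IL1B hold without single tumors, or with slide, scan day or age, was not examined.

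**Figure D4:**
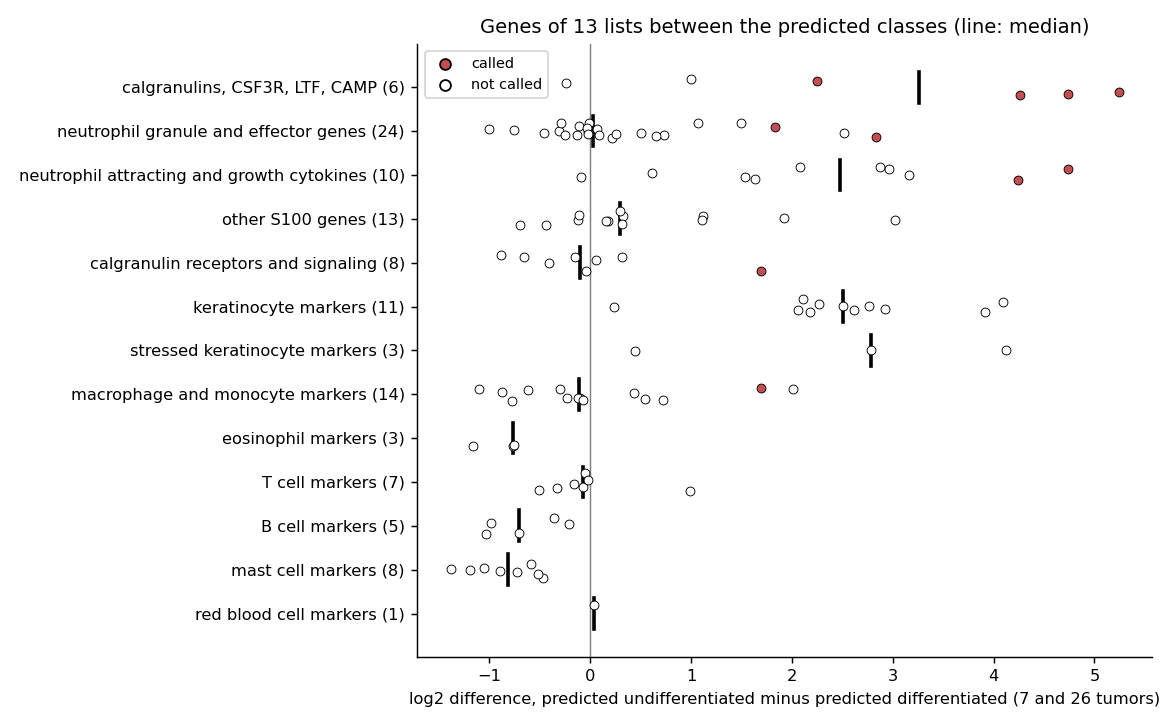
Difference between unknown samples assigned as undifferentiated and as differentiated (x axis, log2, 7 and 26 tumors) for the measured genes of each list (y axis, number of genes in parentheses), 1 point per gene at its brightest probe, filled where called, with the median of the list as a line. The neutrophil granule and effector genes center on a median of 0.03, while the cytokines center on 2.48 and the keratinocyte markers on 2.50, the latter with no gene called.

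Keratinocyte markers correlated with S100A9 across the tumors, and their part in the result was not tested. The 11 measured keratinocyte markers had a median difference of 2.50 between the assigned classes, all 11 were above 0, and limma called 0, with 0 at an unadjusted p under 0.05. Their summed signal ran from 8.71 over a median of 18.66 to 20.09 in the 7 undifferentiated and from 7.52 over 13.73 to 19.88 in the 26 differentiated tumors. It correlated with S100A9 at 0.53 over the 51 tumors, and the single markers did so at 0.32 to 0.60. The summed signal of the 3 measured stressed keratinocyte markers correlated with S100A9 at 0.64. Singly, SERPINB4 did so at 0.67, KRT16 at 0.59 and DEFB4A at -0.15. KRT5, the keratin of basal keratinocytes, differed by 2.50 (adjusted p = 0.641), and KRT14 had no probe by name. Of the 14 measured macrophage markers 1 was called higher (CD14, above) and 0 lower, 5 had an unadjusted p under 0.05, the median difference was -0.11, and their summed signal correlated with S100A9 at -0.08. The defining macrophage markers CD68 and CD163 differed by -0.10 and 0.43 (limma adjusted p = 0.833 and 0.686). The 8 measured mast cell markers had a median difference of -0.81 with 0 called and 6 at an unadjusted p under 0.05; KIT, the receptor of mast cells, differed by -1.20 (adjusted p = 0.101), and CPA3 had no probe by name. For 3 eosinophil, 7 T cell, 5 B cell and 3 stressed keratinocyte markers and 1 red blood cell marker limma called 0, with 1, 1, 1, 2 and 0 at an unadjusted p under 0.05 and medians of -0.76, -0.07, -0.71, 2.78 and 0.04.

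Of the 10 tumors above the gap of S100A9, 9 had KRT5 well above background, at 15.98 to 17.68, and T57 was the exception. Of the 41 tumors below the gap, 32 had KRT5 well above background and 15 had it at 15.98 or more, with a median of 12.51 against 17.05 above the gap. The level of 15.98 is the lowest KRT5 of the 9 tumors above the gap, so their count at that level was fixed by this choice. The gap itself was found in the same data. KRT5 that high also occurred with lower S100A9. The tumors that follow were picked after their values were seen. T57 had S100A9 at 16.97 with KRT5 at 3.67 and KRT10 at 1.60, both not well above background, and a keratinocyte sum of 8.96. The same tumor had CXCL8 at 17.49, IL1B at 13.80, CXCR2 at 10.39 and CSF3R at 12.76. T114 had S100A9 at 17.57 together with KRT5 at 17.21, CXCL8 at 17.03, IL1B at 13.25 and CXCR2 at 9.03. T90, by contrast, had S100A9 at 17.02 and KRT5 at 15.98 with CXCL8 at 8.42 and IL1B at 1.86, the latter not well above background. T47 had KRT5 at 17.75 and a keratinocyte sum of 19.83 with S100A9 at 10.55. T9, the undifferentiated reference sample with the lowest calgranulin levels, had KRT5 at 1.798 and CXCL8 at 7.82.

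**Figure D5:**
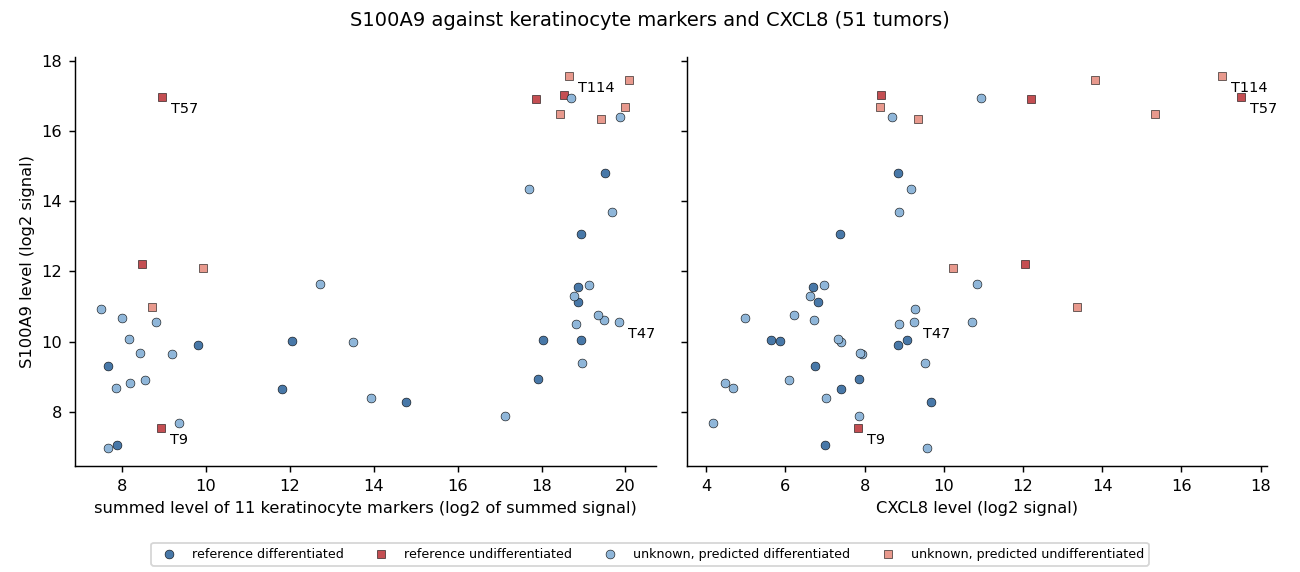
S100A9 level (y axes, log2 signal) against the log2 of the summed signal of 11 keratinocyte markers (left x axis) and against the CXCL8 level (right x axis, log2 signal) in the 51 tumors, with color and symbol showing the class. Tumors with keratinocyte sums above 17 range from S100A9 levels of 7.90 to 17.57, and T57 has S100A9 at 16.97 with a sum of 8.96; T57 and T114 have the highest CXCL8 levels, 17.49 and 17.03.

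Over the 11 keratinocyte markers the median Spearman correlation was 0.61 for LTF, 0.51 for S100A9 and -0.01 for CSF3R, and LTF and KRT5 correlated at 0.71. With the neutrophil granule and effector genes the median was -0.03 for LTF, -0.07 for S100A9 and 0.10 for CSF3R. The single genes of that list correlated with S100A9 at -0.50 (GFI1) to 0.62 (IL1R2). IL1R2 differed by 2.52 between the assigned classes and was not called (limma adjusted p = 0.088).

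Sex and age were examined with class as a covariate. Between 30 female and 19 male dogs 12 of 43603 probes (0.0275%) were called and 0 of the 10 member probes, while 6 member probes had an unadjusted p under 0.05, as did 5.63% of all probes. These 6 were the S100A8 probe, 1.66 higher in females, both S100A9 probes, 1.43 and 1.48 higher, and the LTF probes, 0.97 to 1.34 higher, with a limma adjusted p of 0.8 for each. S100A8 and S100A9 correlated at 0.97 and the LTF probes with each other at 0.96 to 0.99 (Spearman), so the 6 are not independent counts. Females had 11.44 ± 3.00 (SD, n = 30) and males 11.12 ± 3.12 (SD, n = 19) in the brighter S100A9 probe before class was taken into account. With age 0 probes were called (0.00%), 1181 (2.71%) had an unadjusted p under 0.05, and none of the 10 member probes was among these. The slope of S100A9 was 0.10 per year (95% interval -0.20 to 0.39, n = 49).

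In the breeds with most dogs S100A9 spanned almost the whole range. It ran from 7.05 over a median of 12.103 to 17.57 in 9 Boxers, from 6.97 over 10.62 to 17.02 in 14 crossbred dogs, and from 7.69 over 10.03 to 16.91 in 9 Labrador Retrievers, of which 2, 3 and 2 tumors were of an undifferentiated class. Breed was not tested.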

How the data were processed

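Scans were read by the authors with Agilent Feature Extraction 9.5.1, which subtracts the background and detrends the signal array by array, and this processed signal was deposited as an intensity. They also deposited a table of intensities quantile-normalized over the 51 arrays, used here as an alternative.

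Here log2 values of the deposited processed intensity were brought to common quantiles across the 51 arrays with limma 3.58.1 in R 4.3.3. Controls were left out, outlier spots counted as missing, and spots of a probe were averaged. The unknown samples were tested by limma, and p-values were adjusted over all 43603 probes by the Benjamini-Hochberg method. This fit and the methods' t-test assume the same spread in both classes, and no test with a separate spread per class was run. The smaller, undifferentiated class was more spread for CSF3R, CXCR2, MGAM, CXCL8, IL1B and CD14. For these genes the SE and p values are therefore likely too small. Quantile normalization gives all arrays one distribution, so a change in total RNA cannot be seen. Of 100 probes changed by 4 on the log2 scale in simulated data of the same group sizes, 97 were called, of 100 changed by 2, 88 were called, and 4 unchanged probes were called. The changed probes were drawn at random from all probes, each with its own spread, so these rates are not those of the members. In the tested fit the SE was 1.03 for S100A9 and 0.82 for LTF.

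All member probes were named, then for each member the 5 genes of most similar pattern, and list genes that were called (at most 5 per list, by size of difference) with defining markers. A gene with several probes was taken at its brightest. Members and lists were chosen with earlier results of these data known. Neighboring genes were named from RefSeq gene symbols, and no coordinates were taken from it. Figures were drawn with matplotlib.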

Additional observations from a re-analysis of the deposited data

Results flagged for a closer look

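CSF3R stood apart in 1 undifferentiated reference sample, T57. Its brighter probe was 12.76 there, with the nearest of the other 4 samples at 7.83, and its dimmer probe was 8.56, with the nearest at 1.75, a level not well above background. Both gaps were wide beside the range of the group. They came up among 20 groups of samples examined in this way, and about 1 group in 20 is found by chance. CXCL8 at 17.49, IL1B at 13.80, CXCR2 at 10.39 and MGAM at 9.08 were measured in the same tumor.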

How the results depend on the processing

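S100A9, S100A8 and DR104796 were higher in the tumors assigned as undifferentiated under every alternative run, but their calls depended on batch and single tumors. These calls were also lost with age as a covariate, in a fit that drops T132 and T14. Without T132 and with no age term, S100A9 and S100A8 were already not called (limma adjusted p = 0.0137 and 0.0258). With slide as a fixed block the differences were 4.34 for S100A9, 3.75 for S100A8 and 4.76 for DR104796, with 85 probes and 1 member probe called. With scan day as a fixed block, chosen after seeing the data, they were 4.81, 4.20 and 5.30, with 170 probes and 0 member probes called, and with age as a covariate 4.44, 4.02 and 4.97, with 248 and 0. In both of the last fits limma gave 5 member probes an unadjusted p under 0.05. S100A8 was also not called under scaling to the 75th percentile (4.28), the authors' normalized table (4.27), slide as a random block (4.26) and the methods' t-test (4.26), with limma or t-test adjusted p of 0.0101 to 0.0128. The authors' table and the methods' t-test each called 3 member probes. Normexp background correction called 219 probes in all, and an adjusted p under 0.05 called 836. The methods' t-test gave 391 calls after adjustment and 1068 at the unadjusted threshold, 5 of them member probes.

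Leaving out 1 tumor at a time gave 212 to 547 called probes, 0 to 5 member probes called, and differences of 4.37 to 5.47 for S100A9, 3.88 to 5.08 for S100A8 and 4.88 to 5.97 for DR104796. The lowest counts, 212 and 0, were those without T114. Leaving out the differentiated tumors was chosen after seeing the data. For the reference samples the S100A9 difference was 3.19 to 5.56 when 1 undifferentiated sample was left out. The alternatives changed no other count: 0 member probes were called with sex or age under each of them. A mean over probes could not be made for S100A8 and DR104796, which have 1 probe. No paired analysis was possible because the tumors come from different dogs and the replicate numbers follow the order of deposition. The precision is limited by the 7 undifferentiated tumors, and CSF3R, CAMP, MGAM and IL1B lay near background in many tumors.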
